A study of Mus musculus with 6 samples.

Results

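The genes described here encode the nuclear subunits of the oxidative phosphorylation complexes of the mitochondrion, with isoforms of restricted tissues and 8 assembly factors of complex I. They were chosen by name: every probe whose gene symbol starts with Nduf, Uqcr, Atp5 or Cox4 to Cox8, or is Sdha, Sdhb, Sdhc or Sdhd, with the brightest probe taken for a gene. This gave 92 genes from 123 probes, out of 19751 named genes on the array. A filter kept probes that 3 or more arrays measured well above background in at least 1 channel, and it left 90 of them in the fit of 24079 features. The other members, Cox7b2 and Cox8c, isoforms known from testis, were not well above background on enough arrays and have no test.

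RNA was from the retina of adult male C57BL/6 mice 7 days after an injection of 1 µM SH-42, 1 µM SH-80 or phosphate-buffered saline (PBS, the control) into the vitreous of the right eye. SH-42 and SH-80 are compounds known here by these code names. There were 12 mice per group and 4 retinas per pool, and 6 arrays, 3 per compound, each compared such a pool with control RNA. By the labels, treated RNA was in Cy3 and control RNA in Cy5. At these numbers there would be 3 control pools, so arrays may have shared one, and p-values measure the spread between pools only as far as the pools are separate. All 15 rod photoreceptor markers lay in the brightest decile of features. In bulk tissue, fewer cells of a type and less RNA per cell cannot be told apart.

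Oxidative phosphorylation passes electrons from NADH and succinate through complexes I to IV to oxygen and uses the resulting proton gradient to make ATP at complex V. Photoreceptors, with inner segments packed with mitochondria, are among the cells with the highest oxygen use in the body. Most subunits come from nuclear genes, a few core subunits come from mitochondrial DNA, and several complex IV subunits have a second isoform used in muscle, lung or testis.

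All signed values are log2 of Cy3 over Cy5 after loess normalization within each array, which by the labels is compound over control. The series' deposited table runs Cy5 over Cy3, and the dyes were never swapped. The direction is open to that extent, so higher and lower mean only Cy3 relative to Cy5. A value after ± is the model's standard error (SE), with n = 3 arrays for each compound. Adjusted p-values are from limma with Benjamini-Hochberg adjustment over all 24079 features, and called means an adjusted p under 0.05. In Cy3 58.3% to 63.1% of an array's spots were well above background, in Cy5 70.9% to 76.7%, and 0 member spots were saturated. The number of arrays limits the precision. SH-42 replicate 1 stood apart, with medians of 1.15 for bipolar cell, 1.05 for ganglion cell, -1.02 for Muller glia and -1.67 for microglia markers. SH-42 replicate 2 had an SD of log ratios of 0.157, against 0.309 to 0.499 on the other arrays, so SH-42 means average arrays of unlike spread. Arrays other than SH-42 replicate 1 moved in markers too. The 13 lens markers had medians of 1.54, 0.10 and -0.60 on the SH-42 arrays and 2.77, -1.05 and 2.63 on the SH-80 arrays. The 12 microglia markers lay at 0.21 and 1.21 on the other 2 SH-42 arrays and at 1.03, 0.91 and 1.25 for SH-80. The 7 cornea and surface epithelium markers lay at -1.57 on SH-80 replicate 2 and at -0.21 to -0.04 on the rest. The part of these in the members' values was not tested. SH-42 replicate 1 and SH-80 replicate 2 also stood apart in muscle genes, so counts are given with and without them.

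After loess, which removes a trend with intensity, the oxidative phosphorylation genes lay close to equal signal in both channels. Loess draws each range of intensity towards 0, so this closeness is partly set by the method. The brightest decile of features, which held 61 of the members, had loess medians of -0.0005 to 0.02 by array. With median centring the members' medians were -0.63 for SH-42 and -0.32 for SH-80. The next values are by loess. On the SH-42 arrays 34 of 90 were above 0 and their median was -0.06, against -0.03 for all features. On the SH-80 arrays 47 of 90 were above 0 and the median was 0.01, against -0.03. On the SH-42 arrays 0 of 90 members were called by limma, while 0.602% of all features were called, 0.0581% higher and 0.544% lower. An unadjusted p under 0.05 in limma was reached by 27 of 90 members and 5648 of 24079 features. For SH-80 these counts were 32 and 8547. On the SH-80 arrays 8 of 90 members (8.89%) were called, 6 higher and 2 lower, while 14.7% of all features were called, 4.61% higher and 10.1% lower. With median centring in place of loess, given further on, 4 of the 6 higher genes lay below 0, 0 of the 6 were called, and the 2 lower genes were still called. On all 6 arrays alike, 18 members (20%) were above 0, against 13.1% of features, and 19 (21.1%) were below 0, against 20.9%.

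The medians by array were -0.05, -0.02 and -0.05 for SH-42 replicates 1 to 3, and 0.01, -0.03 and 0.06 for SH-80 replicates 1 to 3. The sign of the members' median therefore differed between SH-80 arrays. The members were steadier between arrays in Cy3 than in Cy5. Their median SD over the 6 arrays was 0.04 in normalized log2 Cy3 signal and 0.09 in Cy5, and the SD was larger in Cy5 for 82 of 90. Over all features these SDs were 0.07 and 0.14. Between pairs of arrays, normalized signals of all features correlated at 0.9965 to 0.9991 in Cy3, within and across compounds. In Cy5 these correlations were 0.9618 to 0.9979. Which channel held the control RNA was not tested.

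**Figure D1:**
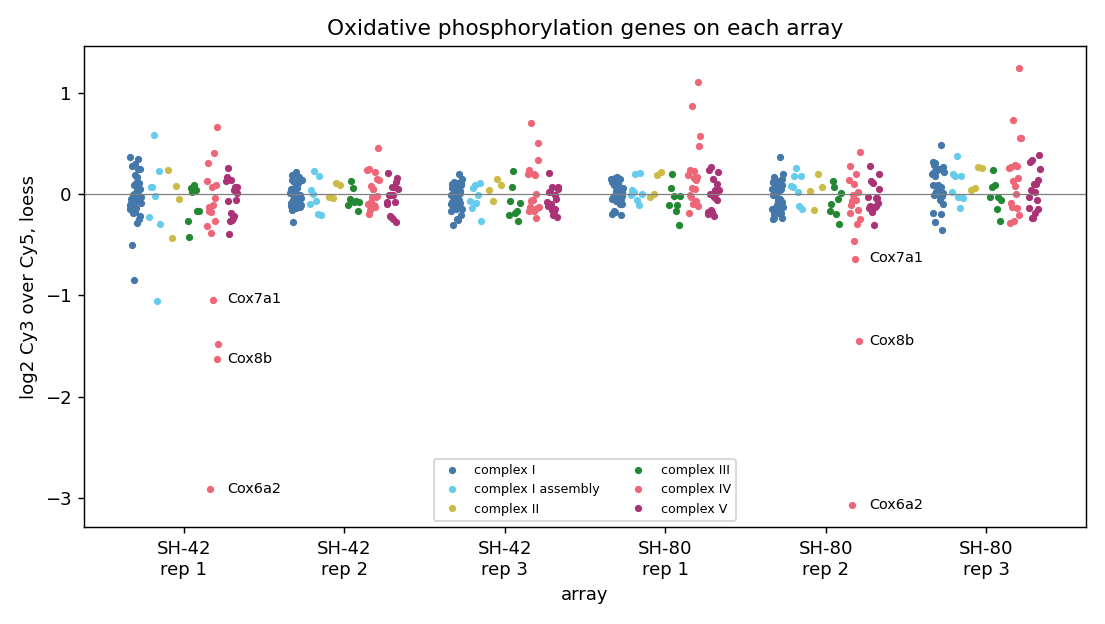
Log2 Cy3 over Cy5 after loess of each tested member on each array, one point per gene, coloured by complex. Most points lie near 0 on every array, and Cox6a2, Cox8b and Cox7a1 lie at -0.64 or lower on SH-42 replicate 1 and SH-80 replicate 2.

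Complex I takes electrons from NADH and hands them to ubiquinone. On the SH-42 arrays 16 of its 36 subunits were above 0 and on the SH-80 arrays 20, with medians of -0.02 and 0.02. Ndufs7, a core subunit that holds an iron-sulfur cluster, was singled out after its values were seen because it narrowly missed the threshold. Its values were 0.05, -0.09 and -0.20 for SH-42 and -0.20, -0.24 and -0.35 for SH-80. The SH-80 mean was -0.26 ± 0.0675 with a limma adjusted p of 0.0502. All 3 SH-80 arrays were below 0 and the SH-42 arrays lay on both sides. Over the 7 core subunits the medians were -0.06 for SH-42 and 0.04 for SH-80.

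The 29 other complex I subunits, which surround the core, had medians of -0.02 for SH-42 and 0.02 for SH-80. Of these 29, 0 were called by limma for either compound, with 6 and 8 at an unadjusted p under 0.05. Over all features 0.602% were called for SH-42 and 14.7% for SH-80. Ndufc1, a small membrane-arm subunit, had the smallest p of complex I for SH-42. It read -0.28, -0.10 and -0.26 on the SH-42 arrays and -0.04, -0.13 and -0.06 on the SH-80 arrays. All 6 were below 0, and the SH-42 mean was -0.21 ± 0.0593 (limma adjusted p = 0.145). Ndufab1, the mitochondrial acyl carrier protein, singled out after its values were seen, lay at -0.85 on SH-42 replicate 1 and between -0.01 and 0.23 on the other 5 arrays.

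The 8 assembly factors of complex I help to build the complex and are not part of it. None of the 8 was called by limma for either compound, with 3 for SH-42 and 2 for SH-80 at an unadjusted p under 0.05. The shares called over all features were 0.602% and 14.7%. Ndufaf7, a methyltransferase, was among the most even members at 0.23, 0.18 and 0.11 for SH-42 and 0.21, 0.18 and 0.18 for SH-80. Its SH-80 mean of 0.19 ± 0.0513 had a limma adjusted p of 0.0558. Ndufaf8 read -0.29, -0.21 and -0.26 for SH-42 and 0.01, -0.15 and -0.04 for SH-80, so every SH-42 array was below every SH-80 array. The SH-42 mean was -0.25 ± 0.0555 (limma adjusted p = 0.123). Ndufaf6, singled out after its values were seen, lay at -1.05 on SH-42 replicate 1 and between -0.20 and -0.01 on the others.

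Complex II, succinate dehydrogenase, is also an enzyme of the citrate cycle, and all of its 4 subunits are nuclear. Its median was 0.07 for SH-42 and 0.10 for SH-80. Sdhc, which anchors the enzyme in the membrane and holds its heme, was called on the SH-80 arrays. It read 0.08, 0.11 and 0.15 for SH-42 and 0.19, 0.20 and 0.26 for SH-80, with every SH-80 array above every SH-42 array. The means were 0.11 ± 0.0507 and 0.22 ± 0.0507, the second with a limma adjusted p of 0.0408. Its other probe gave 0.19 for SH-42 and 0.25 for SH-80. Sdhd, the partner of Sdhc in the membrane, lay at 0.05 ± 0.0628 and 0.19 ± 0.0628 (limma adjusted p = 0.0918 for SH-80).

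Complex III passes electrons from ubiquinol to cytochrome c. Of its 8 members 1 (12.5%) was called, on the SH-80 arrays, and it was lower. Over all features 14.7% were called on these arrays, 10.1% lower. Uqcrh, the acidic hinge protein next to the cytochrome c site, read -0.17, -0.16 and -0.27 for SH-42 and -0.30, -0.29 and -0.27 for SH-80. All 6 arrays were below 0, from -0.30 to -0.16. The means were -0.20 ± 0.0515 (limma adjusted p = 0.14) and -0.29 ± 0.0515 (adjusted p = 0.029). Its other probe gave -0.16 and -0.19. Uqcr11, a small subunit, read -0.42, -0.04 and -0.07 for SH-42 and 0.06, -0.10 and 0.07 for SH-80, so that SH-42 replicate 1 carried most of its SH-42 mean of -0.18 ± 0.0889.

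Complex IV, cytochrome c oxidase, reduces oxygen. Of its 18 tested members 2 (11.1%) were called on the SH-80 arrays, Ndufa4 and Cox5a, both higher. Over all features 14.7% were called on these arrays, 4.61% higher. Ndufa4, once assigned to complex I and now known as a complex IV subunit, had the highest value of any member for both compounds. It read 0.66, 0.46 and 0.34 for SH-42 and 0.47, 0.41 and 0.55 for SH-80. All 6 arrays were well above 0 and both compounds overlapped. The means were 0.49 ± 0.0747 for SH-42 (limma adjusted p = 0.0629) and 0.48 ± 0.0747 for SH-80 (adjusted p = 0.0272).

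Cox5a, a structural subunit on the matrix side, had the smallest spread between arrays of the called genes. It read 0.31, 0.25 and 0.24 for SH-42 and 0.24, 0.28 and 0.26 for SH-80. The means were 0.27 ± 0.0493 (limma adjusted p = 0.0908) and 0.26 ± 0.0493 (adjusted p = 0.03). Cox4i1, the broadly used form of the largest nuclear subunit, read 0.13, 0.24 and 0.20, then 0.19, 0.14 and 0.26. Its SH-80 mean was 0.20 ± 0.0542 with a limma adjusted p of 0.059. Cox7b lay below 0 on all 6 arrays, from -0.29 to -0.06.

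Complex V, ATP synthase, turns the proton gradient into ATP through a central stalk that rotates and a peripheral stalk that holds the catalytic head. Of its 16 members 3 (18.8%) were called on the SH-80 arrays, 2 higher and 1 lower. Over all features 14.7% were called there, 4.61% higher and 10.1% lower. Atp5c1, the gamma subunit of the central stalk, read 0.26, 0.21 and 0.21 for SH-42 and 0.24, 0.28 and 0.31 for SH-80. Its means were 0.23 ± 0.0499 (limma adjusted p = 0.121) and 0.28 ± 0.0499 (adjusted p = 0.029). Its other probe gave 0.09 and 0.19.

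Both called genes of the peripheral stalk lay on opposite sides of 0. Atp5o, the subunit that joins the stalk to the head, read 0.07, 0.16 and 0.08 for SH-42 and 0.22, 0.20 and 0.39 for SH-80. Every SH-80 array was above every SH-42 array, and the SH-80 mean was 0.27 ± 0.0601 (limma adjusted p = 0.0384). Atp5j, coupling factor 6, read -0.26, -0.24 and -0.21 for SH-42 and -0.22, -0.30 and -0.19 for SH-80. All 6 arrays were below 0, and its SH-80 mean was -0.24 ± 0.0518 (limma adjusted p = 0.0375). Atp5e, the epsilon subunit of the central stalk, read -0.39, -0.01 and 0.02 for SH-42 and 0.27, 0.13 and 0.34 for SH-80, with no overlap.

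The calls were close to the threshold. With any 1 SH-80 array left out, 0 of the 8 passed in limma, at adjusted p-values of 0.125 to 0.224. The same held over the whole array, where 0 features passed, with 4667 to 5934 features and 10 to 20 members at an unadjusted p under 0.05. Without SH-42 replicate 1, 28 members (31.1%) passed for SH-80, against 9357 features (38.9%). Leaving out SH-42 replicate 2 or SH-42 replicate 3 left 4 (4.44%) in either case, against 2276 features (9.45%) and 3190 features (13.2%). Without both SH-42 replicate 1 and SH-80 replicate 2, an analysis added after the values were seen, 13 members (14.4%) passed for SH-80, against 5995 features (24.9%). For SH-42 0 members passed in it, against 287 features (1.19%). Scaling between arrays left 0 members for SH-80, against 652 features (2.71%). Slide as a fixed block and replicate number as a block each left 0 members and 0 of 24079 features. Uqcrh stayed called, lower, in 14 of 20 alternative analyses, Ndufa4 in 13, Atp5c1 and Cox5a in 12, Atp5j in 9, Atp5o in 8 and Sdhc in 7.

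**Figure D2:**
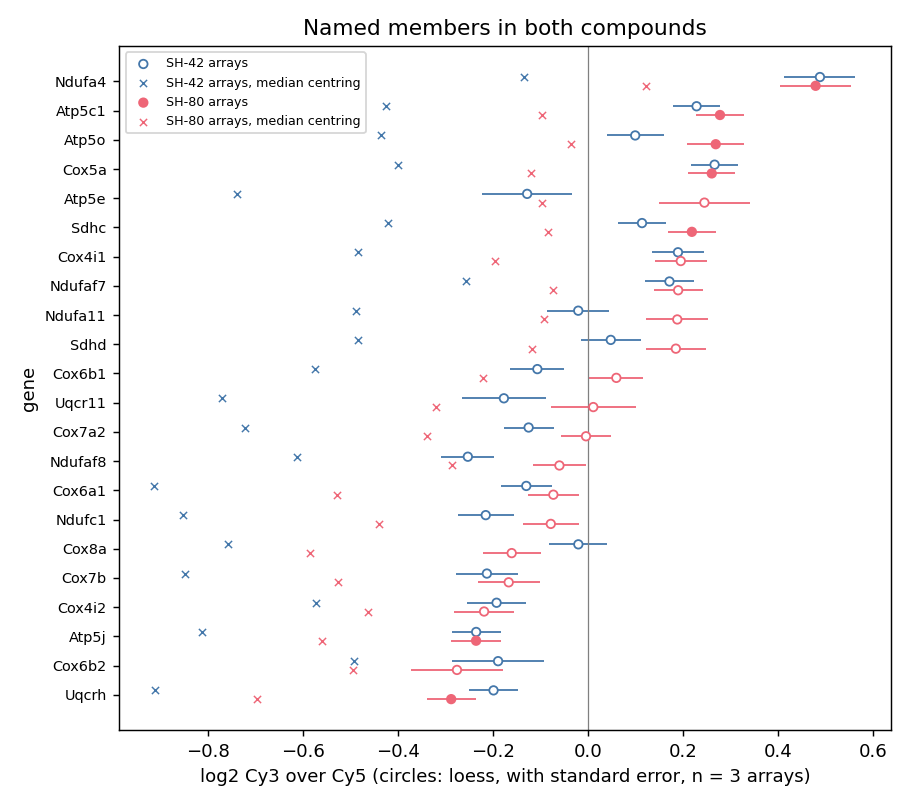
Log2 Cy3 over Cy5 of named members for both compounds, without Cox6a2, Cox7a1, Cox8b and Ndufa4l2, which had wide spreads and are not drawn. Circles are loess means with the standard error (n = 3 arrays), filled where limma's adjusted p was under 0.05, and crosses are the same means with median centring. The 7 filled circles are all on SH-80 arrays, and the crosses lie to the left of the circles of the same gene and compound.

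The muscle isoforms of complex IV had some of the widest spreads among the members, and these followed 2 arrays, not a compound. Cox6a2, Cox7a1 and Cox8b replace Cox6a1, Cox7a2 and Cox8a in skeletal and heart muscle. Cox6a2 read -2.91 on SH-42 replicate 1 and -3.07 on SH-80 replicate 2, and 0.08, 0.70, 0.87 and 0.73 on SH-42 replicates 2 and 3 and SH-80 replicates 1 and 3. Cox8b read -1.63 and -1.45 on the same pair of arrays and 0.15, 0.50, 1.11 and 1.25 on the others. Cox7a1 read -1.04 and -0.64 on that pair and 0.05, 0.20, 0.23 and 0.29 on the others. So 3 of 3 muscle isoforms were below 0 on both of these arrays and above 0 on the other 4.

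The spread was in the Cy5 channel, labelled control. The normalized log2 signal of Cox6a2 lay between 8.56 and 8.87 in Cy3 on all 6 arrays. In Cy5 it was 11.78 and 11.79 on the pair and 7.92 to 8.48 on the others. The SD over arrays was 0.108 in Cy3 and 1.89 in Cy5 for Cox6a2, 0.0535 and 1.21 for Cox8b, and 0.0469 and 0.528 for Cox7a1. The compound means were accordingly imprecise, -0.71 ± 0.964 for SH-42 and -0.49 ± 0.964 for SH-80 in Cox6a2, and none of the 3 was called (limma, smallest adjusted p = 0.574 over both compounds).

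The partners used in most tissues did not share this pattern. Cox6a1 read -0.17 and -0.07 on the same pair and -0.15 to -0.03 on the others. Cox7a2 lay between -0.17 and 0.05 on all 6 arrays, and Cox8a between -0.21 and 0.09 by its brightest probe and between -0.04 and 0.19 by its other probe. Markers of skeletal muscle were low on the same pair of arrays. Over the 18 of 20 markers tested, the median was -1.37 on SH-42 replicate 1 and -0.77 on SH-80 replicate 2, and 0.05, 0.30, 0.32 and 0.34 on the others. Their mean log2 signal in Cy5 was 9.55 and 9.60 on the pair and 7.51 to 7.73 on the others, while in Cy3 it was 7.82 to 8.10 on all arrays. In Cy3, 11 of the 18 were not well above background on at least 1 array, and in Cy5 5 of the 18. Tnnc2 and Tnni2, troponins of fast muscle picked after their values were seen, read -3.07 and -3.30 on SH-42 replicate 1, and -2.82 and -3.39 on SH-80 replicate 2. The part of muscle RNA in these values was not tested.

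**Figure D3:**
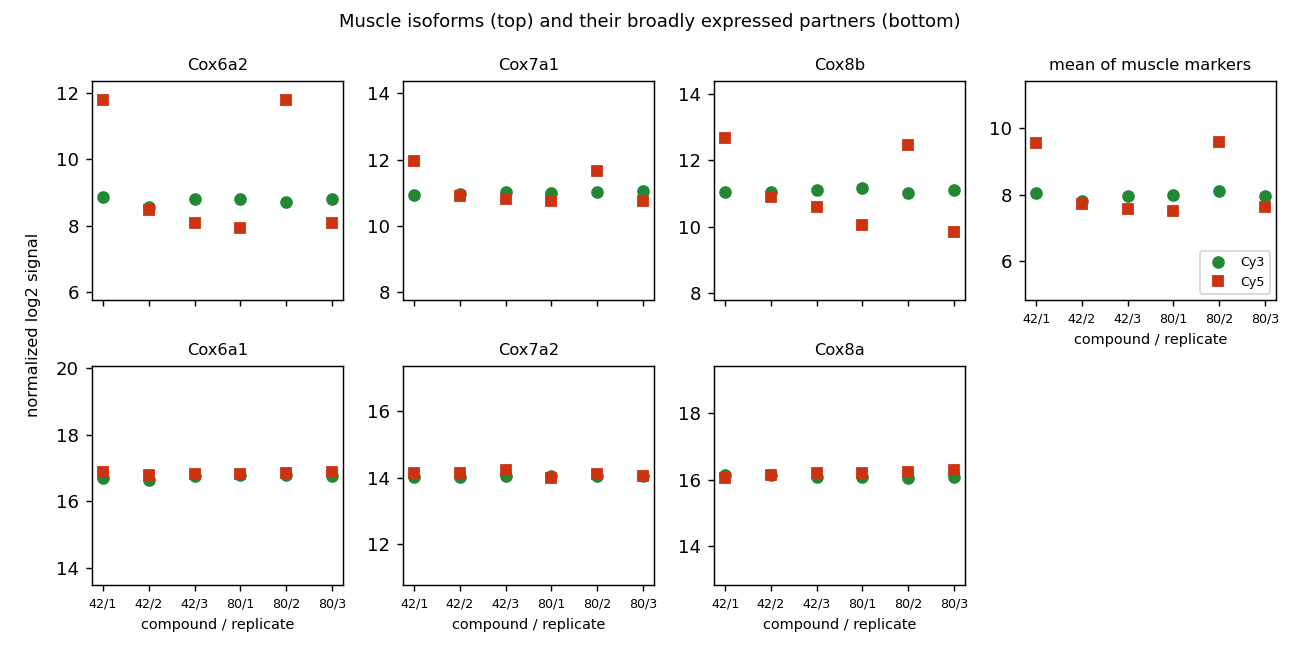
Normalized log2 signal of 3 muscle isoforms of complex IV (top), their broadly expressed partners (bottom) and the mean of 18 skeletal muscle markers (right), on the 6 arrays in Cy3 (green circles) and Cy5 (red squares). In Cy5 the muscle isoforms and markers are high on SH-42 replicate 1 and SH-80 replicate 2, whereas Cy3 and the partners stay level.

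Ndufa4l2, the hypoxia-induced relative of Ndufa4, was among the 3 members of largest SD, with Cox6a2 and Cox8b, but had another pattern. It read -1.48, 0.14 and -0.13 for SH-42 and 0.57, -0.25 and 0.56 for SH-80, lowest by far on SH-42 replicate 1. The smooth muscle and pericyte markers, of which 6 of 8 were tested, had medians of -1.55, 0.08 and 0.37 for SH-42 and 0.37, 0.20 and 0.34 for SH-80. These medians were below 0 on SH-42 replicate 1 only, and the markers' part in the value of Ndufa4l2 was not tested. Cox4i2, the lung and hypoxia form of Cox4i1, was below 0 on all 6 arrays, from -0.32 to -0.10, and opposite in sign to Cox4i1. Cox6b2, known from testis, was also below 0 on all 6, from -0.46 to -0.03. Its partner Cox6b1 read -0.18, -0.08 and -0.06 for SH-42 and 0.06, -0.01 and 0.13 for SH-80.

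The muscle isoforms and their partners had different patterns over the arrays, and the promoters available for them are shown for that reason. Of 92 members, 75 had a window of 250 bases before the transcription start in the RefSeq promoter table (GRCm38.p6). Cox6a2 was among the 17 members without a window, so Cox6a1 is shown without its muscle isoform. The isoforms are Cox7a1 at chr7:30183921-30184170 (plus strand) and Cox8b at chr7:140900447-140900696 (minus strand). The partners are Cox7a2 at chr9:79759854-79760103, Cox8a at chr19:7217617-7217866 and Cox6a1 at chr5:115348959-115349208 (all minus strand). Letters in capitals mark matches on either strand to 6 motifs, those of nuclear respiratory factor 1 (NRF1), ETS factors such as GABP, Sp1, YY1, the E-box used by myogenic factors and the TATA box. No motif contains another, and each is spelled out with its share after the sequences.
Cox7a1: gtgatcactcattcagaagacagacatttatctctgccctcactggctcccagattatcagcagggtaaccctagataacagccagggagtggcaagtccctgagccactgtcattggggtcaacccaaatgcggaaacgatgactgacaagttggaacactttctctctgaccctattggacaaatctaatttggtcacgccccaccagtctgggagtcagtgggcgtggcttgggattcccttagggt
Cox7a2: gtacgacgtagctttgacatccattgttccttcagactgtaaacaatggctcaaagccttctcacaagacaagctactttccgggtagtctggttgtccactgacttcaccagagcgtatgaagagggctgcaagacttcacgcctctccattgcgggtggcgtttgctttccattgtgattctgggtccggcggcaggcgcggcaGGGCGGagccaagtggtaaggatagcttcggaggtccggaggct
Cox8b: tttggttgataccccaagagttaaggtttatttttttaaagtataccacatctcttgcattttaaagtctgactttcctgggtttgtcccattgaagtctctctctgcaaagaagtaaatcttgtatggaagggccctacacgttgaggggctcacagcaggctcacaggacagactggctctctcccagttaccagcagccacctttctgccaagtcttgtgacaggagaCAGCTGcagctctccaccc
Cox8a: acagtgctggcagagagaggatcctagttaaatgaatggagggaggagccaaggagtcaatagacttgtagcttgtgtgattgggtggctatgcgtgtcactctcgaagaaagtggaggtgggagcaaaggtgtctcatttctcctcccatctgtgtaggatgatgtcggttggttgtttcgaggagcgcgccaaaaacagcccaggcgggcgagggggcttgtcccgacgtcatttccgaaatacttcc
Cox6a1: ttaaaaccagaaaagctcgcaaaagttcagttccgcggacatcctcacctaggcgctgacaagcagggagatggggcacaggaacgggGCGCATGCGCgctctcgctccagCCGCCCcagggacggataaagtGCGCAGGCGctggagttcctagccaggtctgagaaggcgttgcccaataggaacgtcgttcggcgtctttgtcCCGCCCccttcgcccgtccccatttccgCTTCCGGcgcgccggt

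Cox6a1 held 3 NRF1 matches, of which overlapping matches share letters, 1 ETS match and 2 Sp1 matches. Cox7a2 held 1 Sp1 match, Cox8b 1 E-box match, and Cox7a1 and Cox8a none of the 6. Over the 75 members with a window, 14 (18.67%) held the NRF1 motif, GCGCANGCG, against 5.332% of all 27025 windows. The ETS motif, CCGGAAG, was found in the windows of 13 members (17.33%), against 7.053% of all windows. The Sp1 motif, GGGCGG, was the most frequent of the 6, in the windows of 31 members (41.33%), against 32.94% of all. The remaining motifs had lower shares among the members than among all windows. The E-box, CAGCTG, was found for 6 members (8%), against 12.77% of all windows. The TATA box, TATAAA, was found for 7 members (9.333%), against 12.97% of all windows. The YY1 motif, AAGATGG, was found for 0 of 75 members, against 4.525% of all windows. The median GC content of the windows was 57.6% for members and 52% for all, and its part in these shares was not tested. Ndufa4, with the highest value, held none of the motifs. A match is a description of letters, not a site.

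The members' probes were among the brightest of the array, and their values turned with the normalization. Of 90 members 61 (67.8%) were in the brightest decile of features by mean log2 signal and 82 in the brightest 3 deciles. Loess removes a trend of the log ratio with intensity, and median centring, which subtracts 1 constant per array, does not. With median centring 0 of 90 members were above 0 on the SH-42 arrays and 6 of 90 on the SH-80 arrays. Their medians were -0.63 and -0.32, against -0.25 and -0.15 for all features. Features in the brightest decile had medians of -0.61 and -0.34.

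With median centring 74 members (82.2%) were called on the SH-42 arrays, all lower, against 37.6% of all features called, 7.23% higher and 30.3% lower, and 75.7% of the brightest decile called. On the SH-80 arrays 18 members (20%) were called, all lower, against 15.1% of all features called, 5.15% higher and 9.92% lower, and 22.3% of the brightest decile called. On all 6 arrays alike 77 of 90 (85.6%) were below 0, against 38.5% of all features and 73.3% of the brightest decile. The differences from the brightest decile were not tested. By array, the members' medians were -0.49, -0.93 and -0.39 for SH-42 and -0.34, -0.36 and -0.25 for SH-80, each close to that of the brightest decile on the same array, -0.45, -0.99, -0.40, -0.38, -0.34 and -0.31.

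SH-42 replicate 2 had the steepest trend with intensity, from a median of 0.37 in the dimmest decile to -0.99 in the brightest. On the other 5 arrays the dimmest decile lay between 0.21 and 0.29 and the brightest between -0.45 and -0.31. Leaving out that array, an analysis added after the values were seen, gave a centred median of -0.46 for SH-42. In it 61 members (67.8%) were called, all lower, against 5000 features (20.8%) called, 1165 of them higher. Of the 8 genes called by loess on the SH-80 arrays, Uqcrh at -0.70 (limma adjusted p = 0.0194) and Atp5j at -0.56 (adjusted p = 0.0345) stayed called with median centring. Atp5c1, Atp5o, Cox5a and Sdhc turned to -0.10, -0.03, -0.12 and -0.08, and Ndufa4 kept its sign at 0.12 without passing. On the SH-42 arrays Ndufa4 lay at -0.13. Which normalization describes the RNA was not tested.

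**Figure D4:**
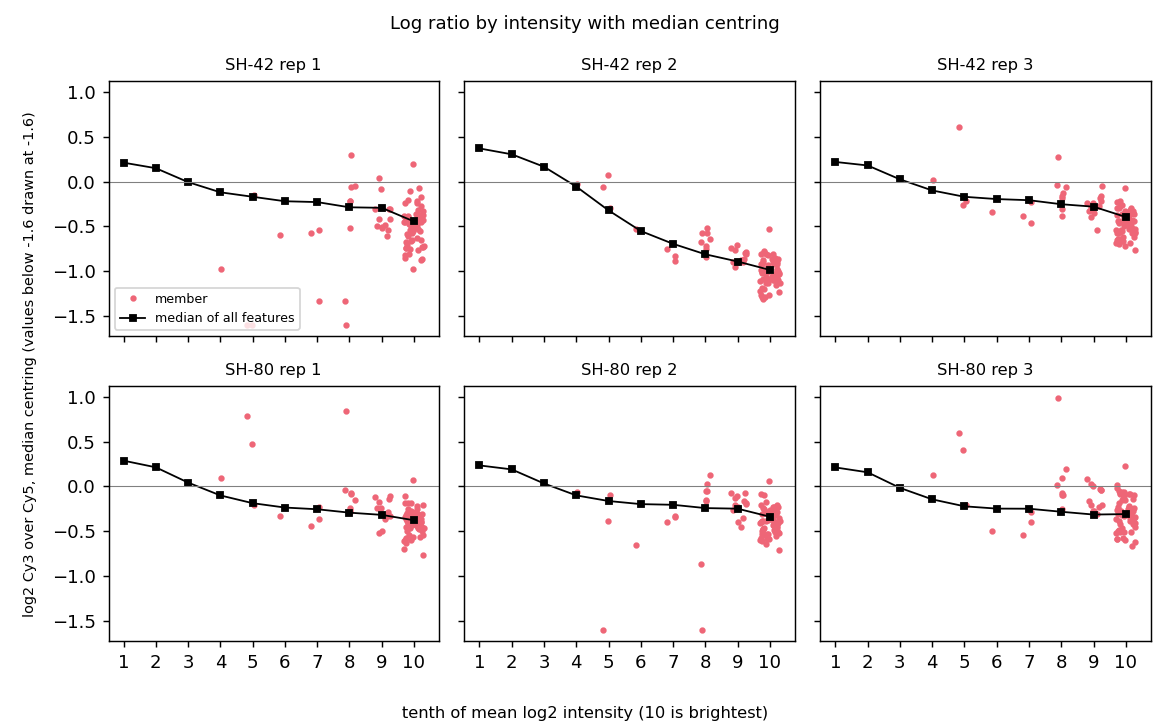
Log2 Cy3 over Cy5 with median centring against the decile of mean log2 intensity, 1 panel per array. Values below -1.6 are drawn at -1.6. Black squares mark the medians of all features of a decile and red points are the members. The squares go from above 0 in the dimmest decile to below 0 in the brightest on every array, farthest on SH-42 replicate 2, and most members lie around the squares of their decile.

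The comparison of both compounds asks whether the members differ between SH-42 and SH-80 at the same dose and day. None passed: 0 of 90 members, as 0 of 24079 features (0%), were called for SH-42 minus SH-80, with 2 members and 940 features at an unadjusted p under 0.05. The structures of the compounds are not stated in the labels. The median difference was -0.05, with 29 of 90 above 0, against 0.01 for all features. There were 14 members (15.6%) with every SH-42 array below every SH-80 array, against 5.44% of features, and 3 (3.33%) with the opposite order, against 8.08%. The first order was no less frequent in other large complexes, at 18.2% of 77 cytosolic ribosomal protein genes, 18.2% of 77 mitochondrial ribosomal protein genes and 29.7% of 37 proteasome genes. Of these, 70, 61 and 34 lay below 0, beside 61 of the 90 members.

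The members with an unadjusted p under 0.05 were Atp5e, at -0.37 (95% interval -0.70 to -0.05), and Ndufaf8, at -0.19 (-0.38 to -0.0027). Both had a limma adjusted p of 0.691. For Ndufa4 the difference was 0.01 (-0.25 to 0.26), for Cox5a 0.01 (-0.16 to 0.17), for Atp5j 0.00 (-0.18 to 0.18), and for Uqcrh 0.09 (-0.09 to 0.27). The median 95% interval reached 0.21 to either side over the 90 members, so a missed threshold does not show that the compounds act alike. For Cox6a2 it ran from -3.52 to 3.08.

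SH-42 replicates 1 and 2 were on slide 1 and the other 4 arrays on slide 2. Within slide 2, SH-42 replicate 3 minus the mean of the SH-80 arrays had a median of -0.05 over the members, with 63 of 90 below 0, against 0.0089 over all features. With median centring 41 members (45.6%) had every SH-42 array below every SH-80 array, against 7.84% of features, and 0 the opposite order, against 3.66%. The brightest decile had the first order in 26.8%, cytosolic ribosomal genes in 76.6%, mitochondrial ribosomal genes in 36.4% and proteasome genes in 32.4%. The median difference was then -0.31 over all arrays, against -0.25 for the brightest decile and -0.08 for all features. It was -0.10 within slide 2 and -0.14 without SH-42 replicate 2.

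**Figure D5:**
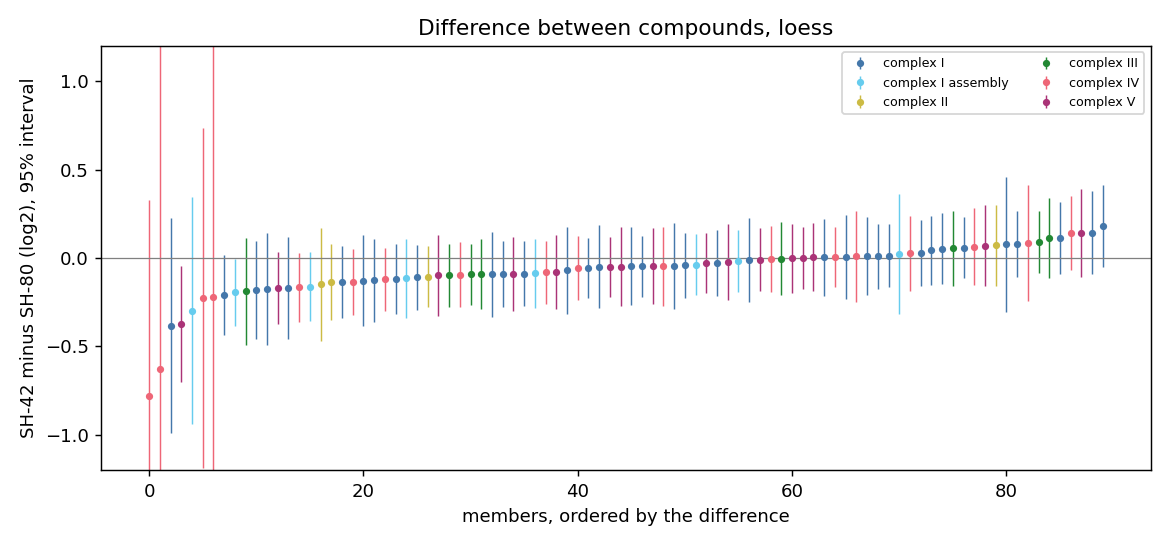
SH-42 minus SH-80 (log2, loess) of the 90 tested members in order of size, with 95% intervals, coloured by complex. The axis ends at -1.2 and 1.2, beyond which the intervals of Cox6a2, Cox8b and Ndufa4l2 run. The intervals of Atp5e and Ndufaf8 lie below 0 and the other 88 include 0.

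The genes that work with the members were taken from fixed lists. Of 27 assembly factors outside the chosen names, 6 (22.2%) were called on the SH-80 arrays, 3 higher and 3 lower, and 0 on the SH-42 arrays. Over all features 14.7% were called on the SH-80 arrays, 4.61% higher and 10.1% lower, and 0.602% on the SH-42 arrays. Bcs1l, which inserts the iron-sulfur protein of complex III, lay at -0.36 ± 0.0519 (limma adjusted p = 0.0255), Ttc19, another complex III factor, at -0.56 ± 0.113, and Cox11, a copper chaperone of complex IV, at 0.29 ± 0.0572. The others, named after their values were seen, were Cox17 at 0.27 and Tmem70 at 0.25, both higher, and Cox20 at -0.37. With median centring 0 of the 27 were called higher and 3 lower on the SH-80 arrays, against 5.15% and 9.92% of all features.

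Of 11 regulators of mitochondrial genes, 1 (9.09%) was called on the SH-80 arrays, against 14.7% of all features. Tfam, which packages and transcribes mitochondrial DNA, was higher by 0.43 ± 0.0687 (limma adjusted p = 0.0273). With median centring 0 of the 11 were called higher and 1 lower on the SH-80 arrays, against 5.15% and 9.92% of all features. On the SH-42 arrays Tfam lay by loess at 0.33 ± 0.0687 without passing (adjusted p = 0.11). Nrf1 and Gabpa, given because their factors bind motifs counted above, lay at 0.00 and 0.06 for SH-42 and -0.22 and 0.08 for SH-80, with no call. Of 17 citrate cycle enzymes and pyruvate dehydrogenase subunits and of 12 other nuclear subunits and carriers, 0 were called by limma for either compound. At an unadjusted p under 0.05 there were 3 and 2 of them on the SH-42 arrays and 7 and 3 on the SH-80 arrays. Subunits encoded in mitochondrial DNA were not analysed here.

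Other large complexes served as a scale. Over all features 14.7% were called on the SH-80 arrays, 4.61% higher and 10.1% lower. On these arrays 9 of 77 cytosolic ribosomal protein genes (11.7%) were called, all higher, with 64 of 77 above 0 and a median of 0.13. Of 37 proteasome genes 6 were called, all higher, with 29 above 0 and a median of 0.15, and of 77 mitochondrial ribosomal protein genes 5 were called higher and 3 lower, with 50 above 0 and a median of 0.06. The oxidative phosphorylation genes stood beside these with 47 of 90 above 0 and calls on both sides, and the differences between the lists were not tested. With median centring 68 of 77 cytosolic ribosomal, 55 of 77 mitochondrial ribosomal and 28 of 37 proteasome genes were called lower on the SH-42 arrays, beside the 74 of 90 members. On the SH-80 arrays this setting called 5, 6 and 0 of them lower and 0 higher, beside 18 members lower. Over all features it called 30.3% lower on the SH-42 arrays and 9.92% lower on the SH-80 arrays.

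The choice of probe mattered for some members. Of the 24 members with several probes that passed the filter, 5 had probes of both signs on the SH-42 arrays and 11 on the SH-80 arrays. These were Atp5g2, Atp5h, Atp5j2, Atp5l, Cox7c, Cox8a, Ndufb11, Ndufb5, Sdhb, Uqcr10 and Uqcrq, and none of them was called. The called genes with another probe, Atp5c1, Sdhc and Uqcrh, had the same sign by both.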

How the data were processed

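Retina RNA was measured on 6 arrays of 2 colours, 3 per compound, and values were read from scanner files. The deposited scanner values are spot intensity per channel on a linear scale and a log10 ratio, made by the authors with Feature Extraction, version 11.0.1.1 per the file headers and 9.3.2.1 per the submitters' processing notes. The deposited value table holds log2 ratios that run Cy5 over Cy3, found by setting each column against the scanner values. It served as an alternative.

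Median signals were corrected with normexp (offset 50) and normalized by loess within arrays, outlier spots were left out, and spots of a probe were averaged. Of 39429 probes 26055 (66.1%) were named through RefSeq from the accession in the scanner files, which gave no other gene name used here. The filter asked for 3 arrays or more with a probe well above background in at least 1 channel and removed 9972 probes, and the brightest probe stood for a gene. limma 3.58.1 (R 4.3.3) was fitted to all 6 arrays, with tests of each compound against 0 and of SH-42 minus SH-80, at a Benjamini-Hochberg threshold of 0.05. The fit was tested on simulated data.

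Members and gene lists were chosen with earlier results of these data known. Genes were named if past the threshold, of smallest p in a complex, an isoform of a restricted tissue or its partner, among the 3 of largest SD, not well above background, or among the 3 of smallest p in a pathway list. The result of 1 called member is not reported here by name. Others are said to have been chosen after their values were seen. Alternatives changed the background correction, normalization, filter, probe choice, blocks and arrays. Figures were drawn with matplotlib 3.10.9.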

Additional observations from a re-analysis of the deposited data

How the results depend on the processing

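Leaving loess for median centring changed most. It gave 74 members called for SH-42 and 18 for SH-80, a median of -0.627 for SH-42, -0.318 for SH-80 and -0.309 for the difference, and 9042 called features for SH-42. It turned the sign of Atp5c1 to -0.425 for SH-42 and -0.0966 for SH-80, of Atp5o to -0.435 and -0.0349, of Cox5a to -0.399 and -0.12, of Sdhc to -0.421 and -0.0842, and, for SH-42, of Cox4i1 to -0.483 and of Sdhd to -0.483. With SH-42 replicate 2 also left out, added after seeing the data, 61 and 53 members and 5000 and 8919 features were called, with medians of -0.462, -0.318 and -0.141.

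For SH-42, with 145 features and 0 members called, other settings called 3192 and 7 without background correction, 0 features with offset 0, 4 with scaling between arrays, 3224 and 2 from processed signals, 3776 and 4 from the deposited value table, 1 member with a strict filter, 77 features with the mean of all probes, and 0 features with slide as a fixed block or with only its own arrays. Leaving out 1 array gave 0 to 451 features, 0 to 1 members and medians of -0.0564 to -0.0284. For SH-80, with 3537 and 8, they called 4765 and 13 without background correction, 2659 and 4 with offset 0, 652 and 0 with scaling, 4367 and 3 from processed signals, 4859 and 5 from the deposited table, 2103 features with a strict filter, 0 and 0 with slide as a fixed block, and 9210 and 21 with only its own arrays. Leaving out 1 array gave 0 to 9357 features and 0 to 28 members. Without both arrays high in muscle genes, added after seeing the data, 287 features were called for SH-42, 5995 features and 13 members for SH-80, and 20 features for the difference. The cause was not tested.

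Same-numbered arrays deviated from their compound's mean with correlations of -0.15, -0.43 and 0.18, and arrays of unlike number with -0.30 to 0.34. Deviations of 3 arrays from their own mean depend on each other, so these values cannot show whether replicate numbers pair the arrays. With the replicate number as a block, limma called 0 features for SH-42 (4212 at an unadjusted p under 0.05) and 0 features (7165) and 0 members for SH-80. Of 92 members 90 passed the filter on background, and the number of arrays limits the precision.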
